A study of Mus musculus with 6 samples.

Results

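The platelet-derived growth factor (PDGF) system was examined in RNA-seq of muscle satellite cells. It was taken as 6 genes chosen by symbol, the ligands Pdgfa, Pdgfb, Pdgfc and Pdgfd and the receptors Pdgfra and Pdgfrb, out of 55536 gene identifiers counted. Satellite cells are the muscle stem cells that rebuild fibres after injury. Control samples (n = 3) came from Pax7CreErt2;Hira fl/+ mice, which the sample labels call WT, and cKO samples (n = 3) from Pax7CreErt2;Hira fl/fl mice. HIRA is a chaperone that deposits the histone variant H3.3. Both groups were adult male C57BL/6J mice that carried the tamoxifen-inducible Cre, received tamoxifen in the diet and were injured in the tibialis anterior muscle with BaCl2. Recombination is therefore driven in cells that express Pax7, and the control keeps 1 wild-type Hira allele beside the floxed one. Cells were sorted 5 days after injury as CD34+ ITGA7+ CD45- TER119- SCA1- and grown for 48 h in high serum with bFGF. The study calls its RNA samples independent without saying that each is 1 mouse, so that p-values measure the spread between these samples, which may be technical.

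PDGF ligands are secreted dimers that bind and pair 2 receptor tyrosine kinases on the cell surface. PDGF-AA and PDGF-CC signal mainly through PDGFRA, PDGF-DD mainly through PDGFRB, and PDGF-BB through both. PDGF-C and PDGF-D are secreted as latent proteins that proteases must cut before they bind. In muscle, PDGFRA is the usual marker of fibro-adipogenic progenitors, the connective tissue cells between fibres, and PDGFRB that of pericytes, the mural cells of capillaries.

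Each library held 47944477 to 63323577 counts on genes, and no replicate pair was a duplicated library. Hira itself went from 375, 348 and 341 counts (control) to 161, 293 and 272 (cKO), a log2 fold change of -0.43 (SE 0.12, edgeR adjusted p = 0.0237). Without control replicate 1 that difference was -0.34 with an edgeR adjusted p of 0.104. By RT-qPCR, another measure than these counts, the study reported a marked fall of Hira RNA in satellite cells of cKO mice. It detected no HIRA protein in them by immunostaining. Over its exons, 44.7% of Hira lies under Gm28539 on the same strand, and its counts are uncertain to that extent. Levels are given as CPM, a gene's counts scaled to a common library total after TMM adjustment, and a gene was called where edgeR's quasi-likelihood test gave a Benjamini-Hochberg adjusted p under 0.05 over 22404 genes. All 6 PDGF genes passed the filter on low counts in that set.

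Both receptors and 1 of the 4 ligands were called higher in cKO, and no PDGF gene was called lower. Pdgfra was 2.21-fold higher, Pdgfrb 1.49-fold higher and Pdgfd 1.92-fold higher. Pdgfa, Pdgfb and Pdgfc did not pass the test. The 3 of 6 genes called stand against 15.8% of all genes tested. Among all genes, 9.38% were called higher and 6.46% lower (2101 and 1448 genes, or 2462 and 1057 where libraries were scaled by total counts only). The CPM of the groups did not overlap for 5 of the 6, against 31.8% of all genes tested.

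The stretches of 250 bases before the RefSeq transcription start are shown for both called genes that have an entry and, beside them, for Pdgfc, a ligand of the same latent type as Pdgfd that was not called. Capitals mark short promoter motifs, for which both strands were searched. One was the TATA box, spelled TATAAA, where the general transcription machinery can bind. Another was the E-box, spelled CANNTG, the site of basic helix-loop-helix factors such as MYOD. The GC box was searched for as GGGCGG, a site of SP1, and the remaining motif was the CCAAT box, searched for by those letters of its name. The coordinates are of GRCm38.p6 (mm10), and no marked motifs overlap.
Pdgfra, chr5:75152001-75152250, plus strand: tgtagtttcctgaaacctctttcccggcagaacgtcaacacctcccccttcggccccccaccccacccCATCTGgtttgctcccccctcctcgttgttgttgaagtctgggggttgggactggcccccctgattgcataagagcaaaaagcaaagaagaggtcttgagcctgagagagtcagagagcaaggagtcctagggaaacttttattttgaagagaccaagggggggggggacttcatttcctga
Pdgfd, chr9:6168236-6168485, plus strand: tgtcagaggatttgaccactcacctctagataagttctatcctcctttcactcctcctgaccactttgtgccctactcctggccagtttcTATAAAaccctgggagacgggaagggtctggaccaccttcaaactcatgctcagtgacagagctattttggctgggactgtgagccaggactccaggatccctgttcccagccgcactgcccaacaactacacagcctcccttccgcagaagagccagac
Pdgfc, chr3:81036166-81036415, plus strand: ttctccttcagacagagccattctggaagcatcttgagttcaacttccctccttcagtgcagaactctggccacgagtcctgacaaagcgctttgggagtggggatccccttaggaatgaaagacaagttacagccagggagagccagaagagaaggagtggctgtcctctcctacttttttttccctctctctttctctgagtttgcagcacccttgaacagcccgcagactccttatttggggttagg
The Pdgfra stretch holds 1 E-box, 182 bases before the start, and 66.2% of 32851 stretches of that length in the RefSeq table hold one. The Pdgfd stretch holds 1 match to TATAAA, 160 bases before the start, and 12.4% of all stretches hold one at any position. Binding at the marked motifs was not tested. None of the 4 motifs is in the Pdgfc stretch.
The 3 stretches shown resemble each other in base composition whether or not their gene was called. Their GC content is 54.4% for Pdgfra, 53.6% for Pdgfd and 50.8% for Pdgfc, near the median of 52.4% over all stretches. Their CpG counts relative to those expected from base composition are 0.216, 0.176 and 0.187, below the median of 0.373. Pdgfa, the fourth gene with an entry, has 2 annotated starts. The stretches before them have CpG ratios of 0.871 and 0.819 and GC contents of 72.4% and 66.4%. They hold 2 and 1 GC boxes, a motif found in 32.7% of all stretches, and no CCAAT box, which is in 33.8%. Pdgfb and Pdgfrb have no entry.

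Pdgfra (ENSMUSG00000029231, chr5:75152292-75198215, plus strand) encodes the receptor for most PDGF dimers. Control replicates 1, 2 and 3 held 1368, 1450 and 1325 of its reads, and cKO replicates 1, 2 and 3 held 2427, 3318 and 2659. Scaled, control gave 24.4, 23.1 and 21.8 CPM against 50.3, 55.2 and 47.5 CPM for cKO. The groups lay far apart, and cKO replicate 2 was the highest library. The mean rose from 23.1 ± 1.31 CPM (SD, n = 3) to 51.0 ± 3.92 CPM (SD, n = 3), a log2 fold change of 1.15 (SE 0.06, edgeR adjusted p = 2.7e-09). It was called under each of the 12 alternatives tried, with log2 fold changes from 1.08 to 1.19. Genes on the other strand cover 6.21% of its exonic bases, and those genes with Mir7025 held at most 6 counts in a library.

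Pdgfrb (ENSMUSG00000024620, chr18:61045150-61085061, plus strand) encodes the receptor for PDGF-BB and PDGF-DD. The control libraries held 3007, 3506 and 3436 of its reads, and the cKO libraries 3908, 5161 and 4477. In CPM this came to 53.7, 55.8 and 56.5 against 81.1, 85.9 and 80.0. Every cKO library was above every control library, and cKO replicate 2 was again the highest. The mean rose from 55.3 ± 1.49 to 82.3 ± 3.17 CPM (n = 3 each, SD), or by a log2 fold change of 0.57 (SE 0.04, edgeR adjusted p = 4.9e-08). All 12 alternatives called it, at 0.54 to 0.60. No annotated gene overlaps its exons.

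The receptors rose unequally in size, as a ratio within each library shows without any scaling. For each Pdgfrb count the control libraries had 0.455, 0.414 and 0.386 Pdgfra counts, and the cKO libraries 0.621, 0.643 and 0.594. All 3 cKO ratios were above all 3 control ratios. The mean log2 ratio was higher in cKO by 0.57, a 1.48-fold difference (exact two-sided permutation test, p = 0.1, the smallest that 3 against 3 samples allows). The comparison therefore cannot pass a threshold of 0.05 in this design.

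Pdgfd (ENSMUSG00000032006, chr9:6168584-6378850, plus strand) encodes a latent ligand of PDGFRB. It was the scarcest PDGF gene: 80, 98 and 84 reads were counted for it in the control libraries, against 125, 184 and 152 in the cKO libraries. At 80 counts, counting error alone is 11.2% of the value. Control libraries held 1.43, 1.56 and 1.38 CPM and cKO libraries 2.59, 3.06 and 2.71 CPM, with no overlap and cKO replicate 2 highest. The mean rose from 1.46 ± 0.0934 to 2.79 ± 0.244 CPM (n = 3 each, SD), or by a log2 fold change of 0.94 (SE 0.12, edgeR adjusted p = 6.1e-05). It was called under all 12 alternatives, at 0.86 to 0.99. No other annotated exon overlaps those of Pdgfd.

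Pdgfa (ENSMUSG00000025856, chr5:138976014-138997370, minus strand) encodes the A chain, a ligand of PDGFRA. Reads numbered 3341, 3845 and 3615 across the control libraries and 3192, 3757 and 3517 across the cKO libraries. After scaling, control gave 59.6, 61.2 and 59.4 CPM and cKO gave 66.2, 62.5 and 62.8 CPM. The cKO libraries all lay above the control libraries, by a small margin. The means were 60.1 ± 0.996 and 63.9 ± 2.05 CPM (SD, n = 3 each), with a log2 fold change of 0.09 (SE 0.04, edgeR adjusted p = 0.121). With libraries scaled by total counts only the adjusted p was 0.044, the one call among 12 alternatives (adjusted p 0.044 to 0.306). Of its exonic bases, 26.1% lie under 6330403L08Rik on the other strand. The strand setting of the counting is not given in the sources used here, so reads of the pair may not be told apart. The partner had 541 to 719 counts in control and 590 to 617 in cKO, with a log2 fold change of 0.03 (edgeR adjusted p = 0.875).

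Pdgfc (ENSMUSG00000028019, chr3:81036416-81214040, plus strand) encodes the latent C chain, a ligand of PDGFRA. The control libraries gave it 2737, 3167 and 3053 counts, and the cKO libraries 2083, 2898 and 2527. In CPM these were 48.8, 50.4 and 50.2 against 43.2, 48.2 and 45.1. Each cKO library was below each control library, with cKO replicate 2 nearest to the control values. The means were 49.8 ± 0.866 and 45.5 ± 2.54 CPM (SD, n = 3 each), with a log2 fold change of -0.13 (SE 0.04, edgeR adjusted p = 0.0504). The value lies at the threshold, and 4 of 12 alternatives called it (adjusted p 0.00517 without cKO replicate 2). Over the alternatives its log2 fold change stayed between -0.18 and -0.09.

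Pdgfb (ENSMUSG00000000489, chr15:79995874-80014977, minus strand) encodes the B chain, which binds both receptors. Control libraries held 424, 560 and 480 of its reads and cKO libraries 312, 463 and 370. In CPM, control gave 7.57, 8.92 and 7.89, whereas cKO gave 6.47, 7.71 and 6.61. The groups overlapped, since cKO replicate 2 was above control replicate 1. The means were 8.13 ± 0.707 and 6.93 ± 0.678 CPM (SD, n = 3 each), with a log2 fold change of -0.23 (SE 0.08, edgeR adjusted p = 0.0852). It was called in 3 of 12 alternatives, without cKO replicate 2 among them, with log2 fold changes from -0.32 to -0.16. Without that library 5 of the 6 PDGF genes were called, Pdgfb and Pdgfc both lower.

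**Figure D1:**
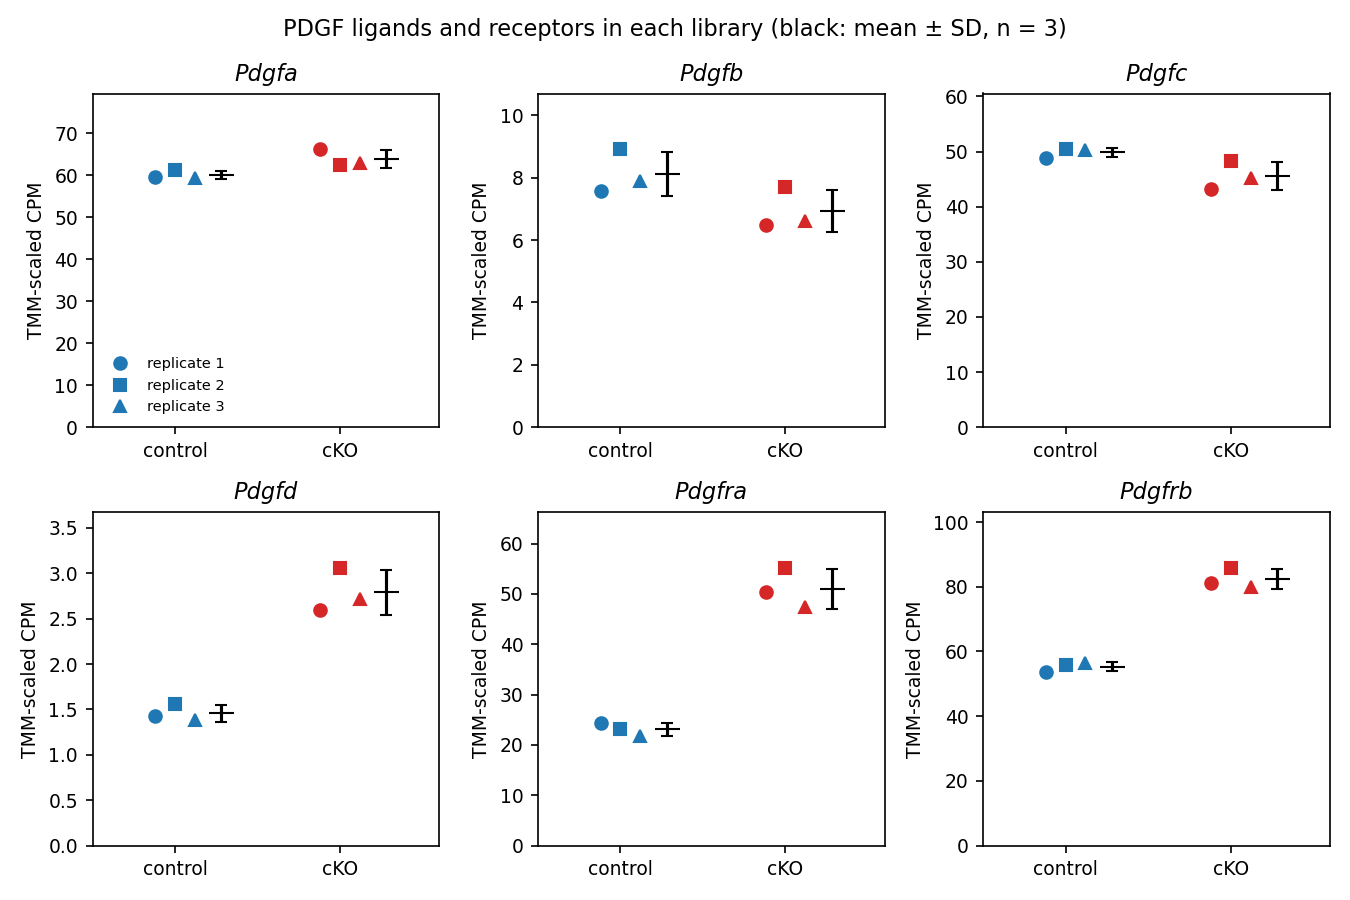
TMM-scaled CPM (y axis, from 0) of each PDGF gene in the 3 control (blue) and 3 cKO (red) libraries, with replicate numbers as symbols and the mean ± SD in black. Pdgfra, Pdgfrb and Pdgfd are clear of the control values in every cKO library, whereas Pdgfb overlaps and Pdgfa and Pdgfc differ by little.

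To compare levels between genes, CPM were divided by the length of a gene's merged exons in kilobases. In control, Pdgfa was highest at 19.3 ± 0.319 CPM per kb, followed by Pdgfrb at 10.1 ± 0.272 and Pdgfc at 9.79 ± 0.170 (SD, n = 3 each). Pdgfra came next at 2.30 ± 0.131 CPM per kb, then Pdgfb at 1.95 ± 0.170, and Pdgfd was lowest at 0.462 ± 0.0296. Pdgfrb and Pdgfc were the only neighbours in this order whose control libraries overlapped. With the longest transcript as the length, Pdgfc (14.2) was above Pdgfrb (10.2) in control. In cKO the order of means was the same and no neighbours overlapped. Pdgfrb stood at 15.0 ± 0.578 CPM per kb there, above Pdgfc at 8.95 ± 0.499, and Pdgfra at 5.09 ± 0.391, above Pdgfb at 1.67 ± 0.163.
Summed per kb, the 2 receptors held 12.2, 12.5 and 12.5 CPM per kb in control and 19.8, 21.2 and 19.3 in cKO. The 4 ligands held 31.0, 32.2 and 31.3 CPM per kb in control and 32.1, 32.4 and 31.5 in cKO, with overlapping ranges. The receptor sums did not overlap. Within the receptor sum, Pdgfra made up 18.6% ± 1.26 in control and 25.3% ± 0.749 in cKO (SD, n = 3 each). Such shares depend on the length used. With the longest transcript, Pdgfra stood at 3.38 in control and 7.47 in cKO, beside 10.2 and 15.2 for Pdgfrb. Within the ligand sum, Pdgfa made up 61.2% ± 0.408 and 64.0% ± 2.08, Pdgfc 31.1% ± 0.399 and 28.0% ± 1.43, and Pdgfd 1.47% ± 0.0685 and 2.77% ± 0.222.

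**Figure D2:**
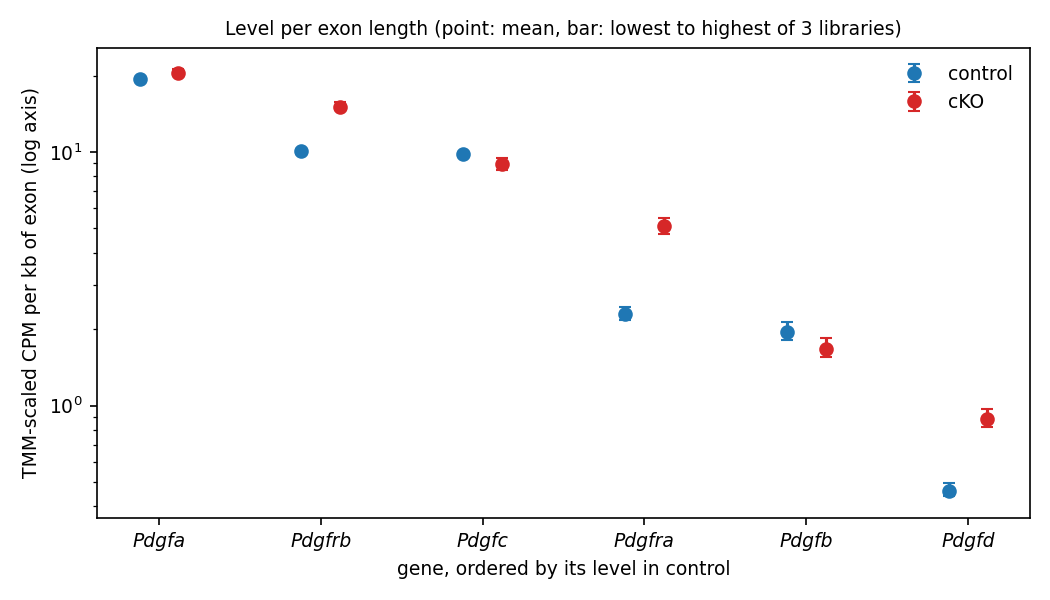
Level of each PDGF gene in TMM-scaled CPM per kb of exon (log axis), in control (blue) and cKO (red), ordered by the control level. Points are means and bars run from the lowest to the highest of 3 libraries; Pdgfa is highest and Pdgfd lowest in both groups, and Pdgfra rises from 2.30 to 5.09.

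Markers of connective tissue cells, mural cells and other types that a muscle preparation can hold were counted beside the PDGF genes. Of 16 fibroblast and fibro-adipogenic markers 14 were tested, 10 were higher and 0 lower (median log2 fold change 0.88). Their summed level was 1270 to 1352 CPM in control and 1705 to 1875 CPM in cKO. The most abundant in control were Col1a2 (591 to 708 CPM, control to cKO mean), Col3a1 (397 to 458) and Gsn (136 to 153), genes for fibrillar collagen chains and an actin-severing protein. Clec3b was at or under 3 counts in each library. The sort had gated out SCA1, which Ly6a of this list encodes, and Ly6a was not called, with 3.07 and 3.63 CPM (edgeR adjusted p = 0.115). Of 11 pericyte and smooth muscle markers 9 were tested, 7 were higher and 2 lower (median 0.27). Their log2 fold changes ran from -0.28 to 1.21, a range that holds the 0.57 of Pdgfrb. Their sum was 3293 to 3345 CPM in control and 3533 to 3630 CPM in cKO, led by Acta2, which encodes smooth muscle actin (2956 to 3155 CPM, log2 fold change 0.09), followed by Cspg4 (0.15) and Abcc9 (-0.20). Kcnj8, a potassium channel gene of pericytes, was at or under 3 counts in each library.
Among 15 macrophage markers 14 were higher and 0 lower (median 1.06), with sums of 147 to 152 CPM in control and 307 to 355 CPM in cKO. The most abundant were Lyz2 (81.1 to 184 CPM), Ctss (18.7 to 42.7) and Cd68 (9.87 to 18.4). In cKO replicate 2, 13 of the 15 were highest, as were Pdgfra, Pdgfrb and Pdgfd. So were 8 of 14 tested fibroblast, 6 of 9 pericyte and smooth muscle, 8 of 12 endothelial and 5 of 5 glial markers. For platelet and for myogenic markers it was 1 of 3 and 1 of 12 tested. Of the pathway genes listed further below, 37 of 89 tested were highest in that library. The share over all genes tested was not counted, so the counts of single lists have no such background. The sort had gated out CD45, which Ptprc encodes, and Ptprc was called higher, from 1.44 to 2.80 CPM (edgeR adjusted p = 5.2e-05). Endothelial markers summed to 31.9 to 33.1 CPM in control and 41.4 to 49.1 in cKO, with 4 of 12 higher and 0 lower (median 0.35). Eng (14.6 to 21.4 CPM), Vwf (4.04 to 4.98) and Cdh5 (3.54 to 4.88) led that list. Platelets store PDGF, and of 5 platelet markers 3 were tested and 2 were higher (median 1.74). They summed to 2.94 to 3.44 CPM in control and 5.39 to 5.88 in cKO and were led by Itga2b (2.26 to 2.31 CPM), Pf4 (0.568 to 1.99) and Ppbp (0.349 to 1.16), with Gp9 at 0 in each library. Glial markers summed to 28.1 to 30.1 CPM in control and 36.9 to 41.9 in cKO, with 1 of 5 tested higher (median 0.34), and were led by Ngfr (17.9 to 25.1 CPM) and Mbp (4.37 to 5.01).
Markers of the myogenic lineage, to which the labelled cell type belongs, were abundant in both groups. Satellite and myogenic markers summed to 6706 to 6758 CPM in control and 5847 to 6084 CPM in cKO, led by Chrna1 (2344 to 2064 CPM), Myog (2131 to 1861) and Myod1 (780 to 699). Of 12 tested 10 were lower and 0 higher (median -0.19). Pax7, which drives the Cre, was called lower as well, at 39.7 against 34.8 CPM. In control, the markers at 1 CPM or more were 9 of 16 for fibroblasts, 9 of 11 for pericytes and smooth muscle, 13 of 15 for macrophages, 7 of 12 for endothelium, 1 of 5 for platelets and 4 of 6 for glia. No gene stands in more than 1 of these lists, and the medians stand beside -0.001 over all genes tested. The counts called stand beside 9.38% higher and 6.46% lower of all genes tested. The markers called higher, most of the macrophage and fibroblast lists among them, moved with Pdgfra, Pdgfrb and Pdgfd, and their part in those rises was not tested. Of the endothelial markers 8 of 12 were not called, as were 4 of 5 tested glial markers, and 2 pericyte and smooth muscle markers were lower. In bulk RNA, more cells of a type and more RNA of a gene per cell cannot be told apart. Without cKO replicate 2, the 3 rises were still called. That fit is no test of cell composition, since 14 of 15 macrophage and 12 of 14 tested fibroblast markers were above control in every cKO library.

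**Figure D3:**
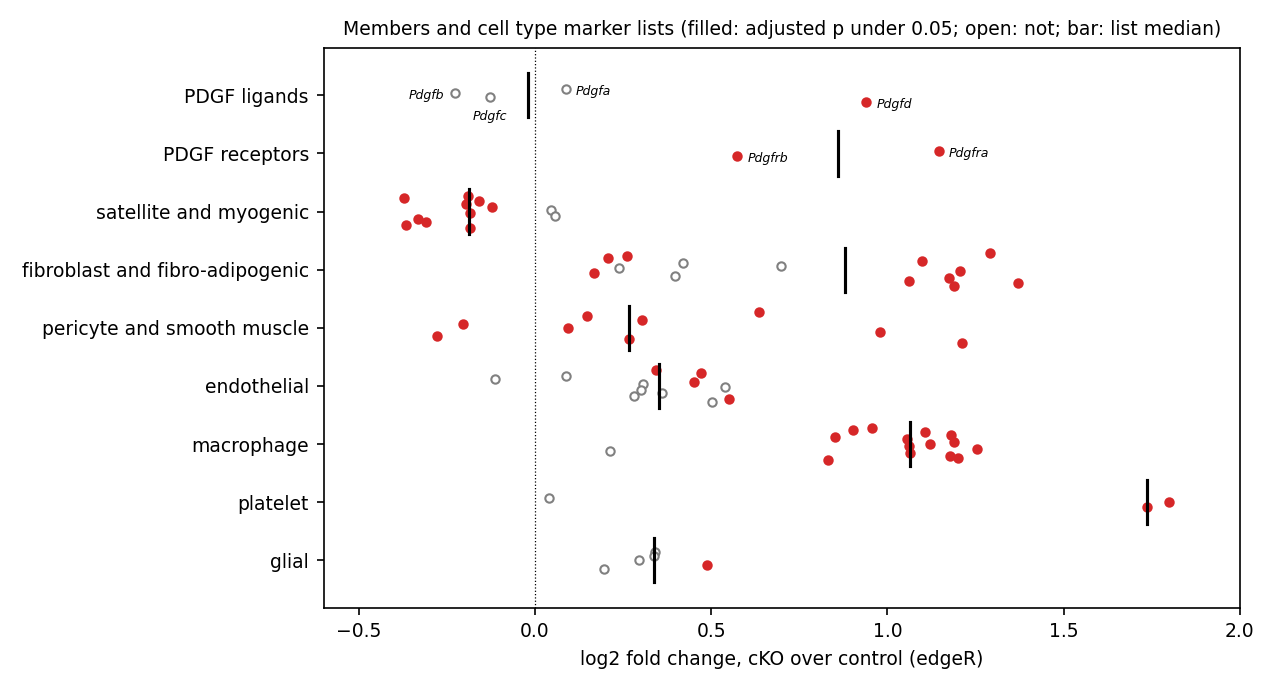
Log2 fold change of cKO over control (x axis) for the PDGF genes and for each tested gene of 7 cell type marker lists (rows); filled points have an edgeR adjusted p under 0.05, open points do not, and black bars are medians. Pdgfra (1.15) lies among macrophage and fibroblast markers, whose medians are 1.06 and 0.88. Pdgfrb (0.57) lies above the pericyte and smooth muscle median of 0.27 and within that list's range of -0.28 to 1.21.

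The other genes of the pathway were taken by role. Of the 10 genes that process or bind PDGF ligands 9 were tested, 4 were higher and 0 lower (median 0.12). Thbs1, which encodes a matrix glycoprotein, rose by 0.70 (edgeR adjusted p = 6.4e-09), and Sparc, a matrix protein that binds PDGF, by 0.33 (4.1e-06). The proprotein convertase Pcsk6 rose by 0.78 (2.8e-06) and Pcsk7 by 0.12 (0.0358). A2m was at or under 3 counts in each library. Among 5 co-receptors 4 rose and 0 fell (median 0.26). They were the integrin subunits Itgb3 (0.35) and Itgav (0.26), the endocytic receptor Lrp1 (0.32) and Nrp1 (0.16).
Downstream of the receptors, 2 of 34 adaptors and effectors were higher and 3 lower (median -0.02). Src and Pik3r1, a kinase and the regulatory subunit of PI3-kinase, were both higher by 0.23. The adaptor Grb2 (-0.20) and the kinase Akt2 (-0.16) were among the lower ones. These 5 of 34 genes stand close to the 15.8% of all genes tested that were called. Of 14 negative regulators 2 were higher, the feedback inhibitors Spry4 (0.48) and Dusp6 (0.30), and 1 was lower, the phosphatase gene Ptpn12 (-0.23), with a median of 0.03. Of 14 early response genes that growth factors induce 8 were higher and 0 lower (median 0.23). The largest changes were in the chemokine genes Cxcl1 (1.77) and Ccl2 (1.37), in Ier3 (0.72) and in the nuclear receptor gene Nr4a1 (0.43). Across these and the related genes, 92 in all, 89 were tested, 27 were higher and 4 lower. This total, and the count of each list here and below, stands beside 9.38% higher and 6.46% lower of all genes tested.

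The receptors nearest to PDGFRA and PDGFRB in structure are the kinases KIT, CSF1R and FLT3, followed by the VEGF receptors. Each of the 4 related receptors with enough counts rose (median 1.02). Csf1r, the receptor of macrophage growth factors, rose from 5.24 to 9.87 CPM (log2 fold change 0.92, SE 0.08, edgeR adjusted p = 1.2e-06). Flt1 rose by 1.12 (SE 0.07, adjusted p = 5.6e-08), Flt4 by 1.22 (SE 0.16, 8.9e-05) and Kdr by 0.78 (SE 0.15, 0.0015), all 3 in edgeR. These are the VEGF receptors, and Flt4 and Kdr were near 1 CPM in control. Kit was not tested, at 0.131 and 0.155 CPM, and Flt3 was at or under 3 counts in each library. Pdgfra and Pdgfrb were therefore not alone in rising among the receptors of their structural group.
Of the 9 ligands of these receptors 3 rose (median 0.10). Kitl, the ligand of KIT, rose by 0.82 (SE 0.06, edgeR adjusted p = 2.2e-07), Csf1, a ligand of CSF1R, by 0.54 (SE 0.04, 5.4e-07) and Vegfa by 0.10 (SE 0.03, 0.0282). Csf1 was abundant, with 930 CPM in control and 1353 in cKO, while Kitl had 8.82 and 15.6 CPM and Vegfa 206 and 222 CPM. The 6 that did not pass the test were Il34 (6.10 to 5.73 CPM), Flt3l (0.406 to 0.606), Vegfb (6.90 to 6.75), Vegfc (10.2 to 9.84), Vegfd (1.06 to 1.44) and Pgf (9.36 to 9.51). Their log2 fold changes ran from -0.09 for Il34 to 0.55 for Flt3l, the latter with an SE of 0.27.

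**Figure D4:**
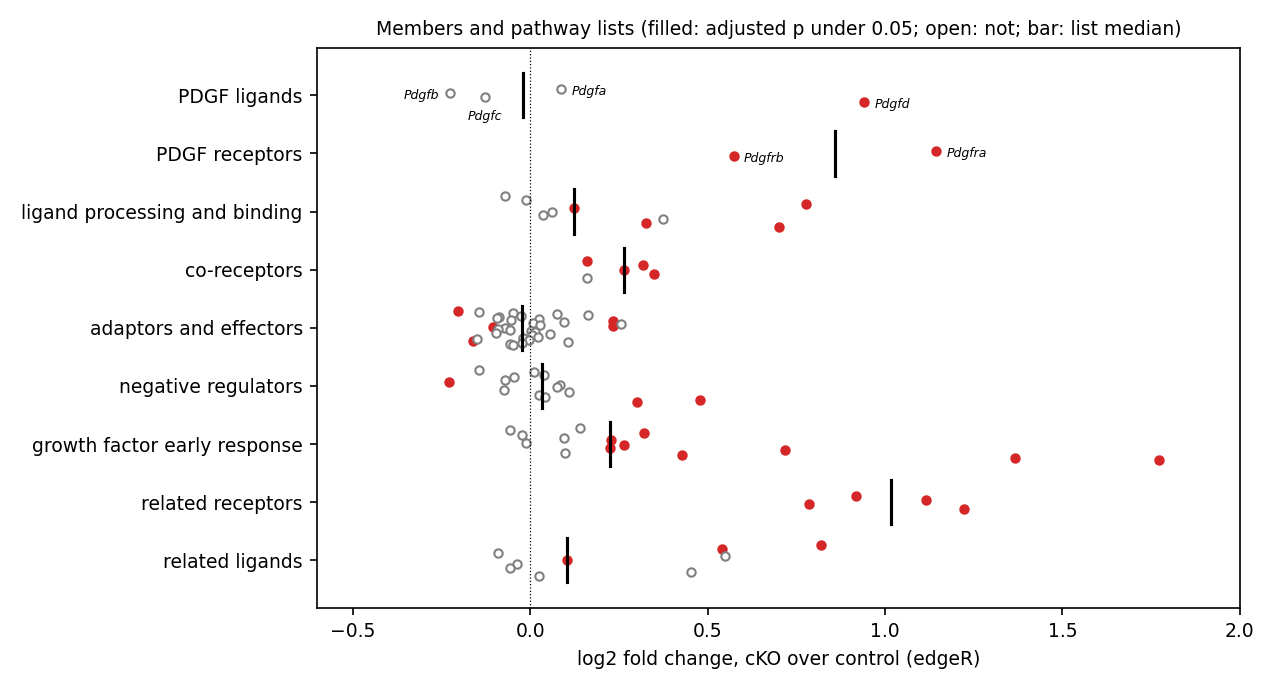
Log2 fold change of cKO over control (x axis) for the PDGF genes and for each tested gene of 7 pathway lists (rows); filled points have an edgeR adjusted p under 0.05, open points do not, and black bars are medians. The 4 related receptors tested all lie from 0.78 to 1.22, while the adaptors and effectors centre on -0.02.

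Around the PDGF genes, 26 protein-coding genes lie within 200 kb, of which 20 were tested, 1 was higher and 0 lower, against 9.38% higher and 6.46% lower of all genes tested. The one called was Csf1r, which starts 15537 bp beyond the end of Pdgfrb on the same strand. Of the other 8 genes near Pdgfrb, Tcof1 (-0.02), Arsi (0.72, SE 0.35), Camk2a (-0.07), Hmgxb3 (0.00), Slc26a2 (-0.09) and Pde6a (-0.11) were tested and not called, and Slc6a7 and Cdx1 were too low to test. Beside Pdgfra, Chic2 differed by 0.03 (edgeR adjusted p = 0.781) and Gsx2 was too low to test. Ddi1, inside the span of Pdgfd, and Gm5294 near Pdgfa and Npcd near Pdgfb were also too low. Near Pdgfa lay Fam20c (0.08), Prkar1b (-0.13) and Dnaaf5 (-0.13), and near Pdgfc lay Glrb (-0.25). The Pdgfb neighbours were Nptxr (-0.17), Cbx6 (0.07), Apobec3 (0.14), Cbx7 (-0.21, edgeR adjusted p = 0.0581), Rpl3 (0.06), Syngr1 (0.53, SE 0.24), Tab1 (-0.02) and Mgat3 (-0.02). No neighbour of Pdgfd could be tested, and Chic2 was the only one tested beside Pdgfra.

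The genes whose profile over the 6 libraries was most like that of each receptor were found by the Euclidean distance between log2 CPM centred on each gene's mean, where 0 is an identical profile. For Pdgfra they were Adm (0.0844), Lyz2 (0.104), Pappa (0.104), Cd36 (0.125) and Apoe (0.136). Adm encodes the vasodilator peptide adrenomedullin and Pappa a protease of IGF-binding proteins, and Lyz2 is 1 of the macrophage markers above. For Pdgfrb they were Specc1 (0.0624), Adam15 (0.0720), Pmp22 (0.0750), Col4a1 (0.0776) and Ctsh (0.0786). Col4a1 encodes a basement membrane collagen, and it went from 345 to 523 CPM. With 6 libraries in 2 groups, the distance covers the difference between the groups together with the order of libraries within each.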

How the data were processed

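RNA was measured in 6 samples, 3 control and 3 cKO, grouped by the sample labels. For the deposited files, the authors used Bowtie2 2.3.4.2 and mm10; this aligner does not split reads over introns and leaves out those over exon junctions. Per the labels, featureCounts 1.6.3 was used, and the deposited counts are raw reads per gene. The authors also deposited a normalized table and a comparison table with mean, fold change, standard error and p-values from DESeq2 2.11.40.6. Neither was used.

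The test was edgeR's quasi-likelihood F test (version 4.0.16, R 4.3.3) after filterByExpr and TMM, on genotype alone, with Benjamini-Hochberg adjustment over 22404 genes. Replicates had a common biological coefficient of variation of 3.92%. The test was checked on simulated counts. SE is the log2 fold change over the square root of F. CPM use TMM-scaled totals. Profile distances used log2(CPM + 0.1). Symbols, lengths and coordinates are of GENCODE M21, promoters of RefSeq. Python 3.11.15, scipy 1.17.1 and matplotlib 3.10.9 made the other tests and plots.

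The PDGF genes and lists were chosen with earlier results of these data known. Named genes were all PDGF genes, related receptors and ligands, up to 4 called genes of each other pathway list by size of change, the 3 most abundant markers of each list and any at or under 3 counts, protein-coding genes within 200 kb, and the 5 nearest profiles. Pax7, Ly6a and Ptprc were named outside this rule after their values were seen. One marker that this rule names is not reported here. Alternatives were DESeq2 1.42.0, other scalings and filters, a replicate block, another gene length and leaving out each library.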

Additional observations from a re-analysis of the deposited data

How the results depend on the processing

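Pdgfra, Pdgfrb and Pdgfd were called in all 12 alternatives of the test, and no PDGF gene changed direction in any. The count of PDGF genes called, 3 as reported, was 5 without a filter on low counts, where Pdgfb and Pdgfc were added as lower, and 3 to 5 when 1 library was left out. The 5 came without cKO replicate 2. It was 4 with RLE size factors, which added Pdgfc, and 4 with total counts only, which added Pdgfa. The cause was not tested. Hira had log2 fold changes of -0.524 to -0.286 over the fits that left out 1 library, the call being lost without control replicate 1 (-0.344, edgeR adjusted p = 0.104). Samples of the same replicate number were not seen to deviate together over the genes tested. Their correlations were -0.0145 to -0.00449, and 0 of 6 samples correlated best with its own number. All pairs of a control and a cKO sample lay between -0.0145 and 0.0204, so that this check cannot exclude a pairing. With the replicate number as a block, 3152 genes were called instead of 3549, and 5 PDGF genes. The difference in log2 ratio of Pdgfra to Pdgfrb was 0.51 to 0.63 without 1 library (exact permutation p = 0.2, the smallest possible) and 0.57 under the block (exact sign-flip permutation p = 0.25). Counting error limits Pdgfd most, at 80 to 184 counts.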
